A study of Mus musculus with 14 samples.

Results

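The genes described here encode the SR proteins and the hnRNPs, the 2 large families of RNA-binding proteins that regulate pre-mRNA splicing. Members were chosen by symbol: every Srsf gene with a number, every Hnrnp gene that is not a pseudogene symbol, and the SR-related genes Tra2a, Tra2b, Srrm1 and Srrm2. The rule found 35 of the 55228 symbols in the table, namely 11 Srsf genes, 4 SR-related genes and 20 Hnrnp genes, and used no measured value. A pair of symbols that end in -ps, Hnrnpa1l2-ps and Hnrnpa1l2-ps2, were left out, with 10 and 11 counts over all libraries.

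SR proteins carry RNA recognition motifs and a tail rich in alternating arginine and serine (the RS domain). Bound to exonic enhancers, they recruit U1 and U2 components of the spliceosome, and kinases and phosphatases that act on the RS domain set their location and activity. The hnRNPs coat nascent transcripts, and many of them oppose SR proteins at exons, while others act in mRNA stability, transport or chromatin. Many genes of both families tune their own level through exons that send the transcript to nonsense-mediated decay, so that the RNA level of a member and the level of its protein need not move together. In keratinocytes these proteins take part in the splicing choices that accompany proliferation, differentiation and wound repair.

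The libraries are small-pool RNA sequencing of Lrig1 GL Sca1+ epidermal cells from mouse tail epidermis. All mice had the genotype Lrig1CreER/Rosa-TdTomato, in which an inducible Cre recombinase expressed under Lrig1 control can switch on a red reporter, and all were listed with no treatment and at the time 8w pw1. Control cells came from the Ctrl (non-memory) region (8 libraries) and distal cells from the Distal memory region (6 libraries), and both were sorted and then grown for 1 week in keratinocyte medium before RNA was taken. The question was how cultured distal cells differ from control cells. The starting point of that time is not spelled out in the labels, and the values describe cells after a week outside the tissue. The sample descriptions place the libraries in 4 sets, each within 1 region: control sets 1 and 2 have 6 and 2 libraries, and distal sets 1 and 2 have 2 and 4. The titles do not show these sets. They name every control library Ctrl1, also those of control set 2, whose descriptions carry CTRL2, so the sets rest on the descriptions alone. Nothing in the labels ties libraries to separate mice or cultures, so a p-value reflects the spread among these libraries alone, which could be technical.

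Control libraries held 4515646 to 7458872 counts and distal libraries 2137934 to 4513518, so depth did not overlap between the regions. The slope of log2 expression on transcript GC content also differed: it was -0.60 to -0.33 per 10 percentage points of GC in control and 0.22 to 0.91 in distal libraries, each relative to the mean of all libraries. The 11 keratinocyte markers summed to 10717 to 14716 CPM (counts scaled to a common library total) in control and 14526 to 23178 CPM in distal libraries, with none at 0 in all libraries. Krt14 (means of 3989 and 9224 CPM) and Krt5 (2065 and 4330 CPM) had the largest differences in CPM among them, while Dsg3, Itga6, Trp63 and Ly6a were lower in distal cells (log2 fold changes of -0.48, -0.83, -0.92 and -0.44, adjusted p under 0.05 by edgeR). Of the other cell types, the 8 fibroblast markers summed to 7.67 to 648 CPM in control and 32.7 to 250.4 CPM in distal libraries (Lum at 0). The 7 melanocyte markers were at 15.4 to 47.5 and 12.7 to 41.0 CPM (Dct and Sox10 at 0). The 8 immune markers reached at most 2.05 and 1.37 CPM (Cd3e, Cd3g, Cd207 and Tyrobp at 0), and the 5 endothelial markers 9.86 and 9.51 CPM (Cdh5 and Vwf at 0). The part of depth, GC slope and keratinocyte markers in the differences below was not tested.

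Transcripts of the SR protein and hnRNP genes were mostly lower in distal cells. Of the 34 members with enough counts to test, 20 were lower and 2 higher in distal cells at an adjusted p under 0.05 (edgeR quasi-likelihood test, adjusted over all 11757 genes tested), and 12 did not pass. Over all genes 48.3% passed, 24.3% higher and 24.1% lower. The median log2 fold change (distal minus control) was -0.61 over the members and -0.16 over all genes. With upper-quartile scaling, which moves the median of all genes to 0.00, the median of the members was -0.45 and 2 were higher and 16 lower, where 46.4% of all genes passed (27.7% higher, 18.7% lower). Srsf12, the only member not tested, had 21 counts in all. In bulk samples a lower value cannot be told apart from fewer cells that carry the transcript.

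Together the 35 genes took 1.44% to 1.94% of the counts in control libraries (median 1.68%) and 1.03% to 1.65% in distal libraries (median 1.22%). The ranges overlap through distal replicates 3 and 4, the deepest of the 6. The Hnrnp genes made up most of this, with 1.04% to 1.45% in control and 0.687% to 1.23% in distal libraries. The Srsf genes took 0.307% to 0.399% and 0.258% to 0.340%. The share of the 4 SR-related genes did not overlap, at 0.0871% to 0.104% in control and 0.0718% to 0.0831% in distal libraries.

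**Figure D1:**
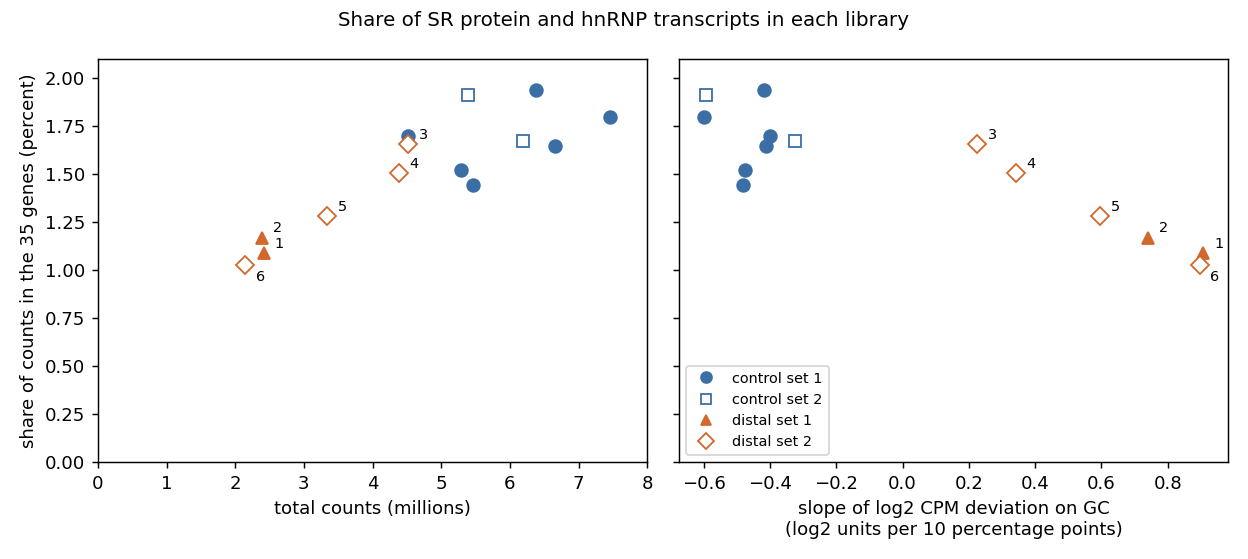
Share of each library's counts that falls on the 35 SR protein and hnRNP genes (vertical axis, percent), against the library's total count and against its slope of log2 expression on GC content (horizontal axes); each point is 1 library, with colour for region and symbol for set, and the distal points carry their replicate number. The distal share runs from 1.03% in replicate 6 to 1.65% in replicate 3, which also has the most counts and the flattest slope of the distal libraries.

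Among the 10 Srsf genes tested, 4 were lower (Srsf3, Srsf6, Srsf10 and Srsf11), 1 was higher (Srsf9) and 5 did not pass, with a median log2 fold change of -0.40. Thus 50% of them passed, near the 48.3% of all genes (24.3% higher, 24.1% lower). The RS domain that defines the family shows in the coding sequence as runs of arginine codons beside serine codons. The stretches below, in frame, are the 30 codons with the most such neighbours in the principal transcript of the 6 Srsf genes on which the results turn. Arginine codons are in capitals, and many codons between them are serine (agc, agt or tcn). The sequences are from the GENCODE transcripts of GRCm38. The stretches hold 48.89% (Srsf3) to 71.11% (Srsf2) GC and do not stand for the whole transcript: those of Srsf7 and Srsf5 hold more GC than the transcripts of these genes do, whose medians are 41.5% and 43.5%.
Srsf3, codons 130 to 159: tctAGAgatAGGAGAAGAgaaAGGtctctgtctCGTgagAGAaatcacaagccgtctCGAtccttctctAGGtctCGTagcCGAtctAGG
Srsf6, codons 189 to 218: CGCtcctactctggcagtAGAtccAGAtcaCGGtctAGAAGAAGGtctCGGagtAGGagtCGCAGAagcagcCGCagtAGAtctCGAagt
Srsf9, codons 172 to 201: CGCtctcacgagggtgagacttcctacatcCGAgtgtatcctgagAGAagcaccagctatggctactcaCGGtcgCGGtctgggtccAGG
Srsf2, codons 127 to 156: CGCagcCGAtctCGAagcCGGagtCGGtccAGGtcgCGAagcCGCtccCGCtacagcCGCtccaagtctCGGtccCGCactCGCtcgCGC
Srsf7, codons 127 to 156: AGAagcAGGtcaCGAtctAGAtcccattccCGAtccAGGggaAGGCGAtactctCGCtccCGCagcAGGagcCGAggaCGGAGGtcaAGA
Srsf5, codons 197 to 226: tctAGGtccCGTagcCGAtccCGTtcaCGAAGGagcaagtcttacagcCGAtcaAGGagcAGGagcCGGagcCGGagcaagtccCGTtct

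Srsf3 fell the most among the Srsf genes. It encodes the smallest SR protein, which acts in splicing and in mRNA export (chromosome 17, 29032628 to 29043373, GRCm38). Its level ran from 659 through a median of 886 to 1118 CPM in control libraries, and from 310.0 through 409 to 602 CPM in distal libraries. Every distal library was below every control library. The log2 fold change was -1.02 ± 0.17 (SE; n = 8 and 6), with an edgeR adjusted p of 0.00011.

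Srsf6, an SR protein whose excess causes hyperplasia of mouse skin, was likewise lower in all distal libraries than in any control library. Control libraries were at 287 to 452 CPM (median 382) and distal libraries at 176 to 276 CPM (median 212). Its fold change on the log2 scale was -0.79 ± 0.14 (SE), edgeR adjusted p = 0.00026. Srsf6 lies on chromosome 2 (162931528 to 162937121), and its stretch above holds 21 arginine and serine neighbours in 30 codons.

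Srsf10, which represses splicing when it loses its phosphates, as in heat shock, was at 232 to 349 CPM in control (median 285) and 107 to 254 CPM in distal libraries (median 164). All distal libraries but replicate 3 were below the lowest control library. Its log2 fold change was -0.75 ± 0.19 (SE), edgeR adjusted p = 0.0042. Srsf11, a less typical SR protein, had a log2 fold change of -0.51 (adjusted p = 0.026 by edgeR).

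Srsf9 was the Srsf gene that rose. It encodes a short SR protein, and its stretch above has only 7 arginine and serine neighbours in 30 codons (chromosome 5, 115327177 to 115333080). Srsf9 was at 37.9 to 72.6 CPM in control (median 55.1) and 52.1 to 110.4 CPM in distal libraries (median 98.6). Distal replicate 4 lay inside the control range, and the other distal libraries lay above it. Its log2 fold change was 0.73 ± 0.19 (SE), edgeR adjusted p = 0.0042.

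Srsf7, Srsf5 and Srsf2 did not pass in this fit, and their groups overlap. Srsf7, an SR protein with a zinc knuckle that also serves mRNA export, was at 306 to 506 CPM in control (median 428) and 244 to 496 CPM in distal libraries (median 297), with a log2 fold change of -0.31 ± 0.17 (SE; adjusted p = 0.14 by edgeR). Srsf5, at 136 to 173 CPM in control (median 152) and 118 to 176 CPM in distal libraries (median 136), had a log2 fold change of -0.12 ± 0.13 (SE; adjusted p = 0.43 by edgeR). Srsf2, the SR protein long used as a marker of nuclear speckles, was at 501 to 897 CPM in control (median 655) and 511 to 828 CPM in distal libraries (median 738), with a log2 fold change of 0.10 ± 0.15 (SE; adjusted p = 0.61 by edgeR). For these 3 genes the change lay within about 2 SE of 0. Srsf1, the best studied SR protein, was at -0.50 (adjusted p = 0.14 by edgeR). The weakly expressed Srsf4, with 184 counts in all, was at 0.93 ± 0.48 (SE; adjusted p = 0.12 by edgeR).

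Of the 4 SR-related genes, Tra2a and Srrm1 were lower and Tra2b and Srrm2 did not pass (median log2 fold change -0.50). Over all genes 48.3% passed, 24.3% higher and 24.1% lower. Tra2a, a homologue of the fly sex-determination factor Transformer-2 that binds GAA-rich enhancers, was at 57.8 to 130.3 CPM in control (median 98.8) and 22.8 to 80.3 CPM in distal libraries (median 49.3). The groups overlap, with 3 distal libraries under the control minimum and distal replicates 3, 4 and 5 above it. The log2 fold change of Tra2a was -0.97 ± 0.27 (SE), edgeR adjusted p = 0.0063. Its paralogue Tra2b was at -0.49 ± 0.23 (SE; adjusted p = 0.089 by edgeR).

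Srrm1, a coactivator that bridges SR proteins and the spliceosome without an RNA recognition motif, was at 154 to 299 CPM in control (median 199.7) and 117 to 163 CPM in distal libraries (median 139). Its log2 fold change was -0.51 ± 0.16 (SE), edgeR adjusted p = 0.013. Srrm2, a large scaffold of nuclear speckles, was at 163 to 352 CPM in control (median 256) and 147 to 282 CPM in distal libraries (median 197), with a log2 fold change of -0.35 ± 0.19 (SE; adjusted p = 0.15 by edgeR). Both genes overlap between the groups.

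Of the 20 Hnrnp genes, 14 were lower, 1 (Hnrnpf) was higher and 5 did not pass, with a median log2 fold change of -0.70. That is 70% lower and 5% higher, beside 24.1% and 24.3% of all genes. Hnrnpd had the largest fall by log2 fold change among all members. It encodes AUF1, which binds AU-rich elements and speeds the decay of their mRNAs (chromosome 5, 99955935 to 99978938). Hnrnpd was at 313 to 460 CPM in control (median 377) and 78.7 to 252 CPM in distal libraries (median 152). No distal library reached the control range, but the distal libraries differed more than 3-fold among themselves. The log2 fold change was -1.21 ± 0.22 (SE), edgeR adjusted p = 0.00028. Its paralogue Hnrnpdl was at -1.10 ± 0.26 (SE; adjusted p = 0.0024 by edgeR).

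Hnrnpu, a scaffold protein that binds both RNA and chromatin (chromosome 1, 178321108 to 178337797), had the smallest p of all members. It was at 1066 to 1564 CPM in control (median 1165) and 383 to 803 CPM in distal libraries (median 507), with no overlap. Its log2 fold change was -1.12 ± 0.18 (SE), edgeR adjusted p = 6.9e-05. Its relative Hnrnpul1 was at 82.5 to 189 CPM in control (median 99.9) and 53.3 to 70.3 CPM in distal libraries (median 59.7), again with no overlap. The log2 fold change of Hnrnpul1 was -0.93 ± 0.19 (SE), edgeR adjusted p = 0.0008, and Hnrnpul2 was at -0.66 (adjusted p = 0.0056 by edgeR).

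Hnrnpk, whose KH domains bind C-rich RNA and DNA (chromosome 13, 58391142 to 58403343), was at 1415 to 2236 CPM in control (median 1794). Distal libraries were at 599 to 1319.9 CPM (median 772), all below the control minimum, with replicates 3 and 4 at the top. On the log2 scale the difference was -0.99 ± 0.19 (SE), edgeR adjusted p = 0.00035. Hnrnpc, which binds uridine tracts and shields cryptic exons from the spliceosome, was at 365 to 499.7 CPM in control (median 422) and 251 to 311 CPM in distal libraries (median 268). Its distal libraries were the most alike of the genes that fell without overlap, and its log2 fold change was -0.62 ± 0.12 (SE; adjusted p = 0.0003 by edgeR).

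The hnRNPs that bind G-runs include both a fall and a rise. Hnrnph1 was at 481 to 677 CPM in control (median 586.5) and 276 to 441.5 CPM in distal libraries (median 349), with no overlap and a log2 fold change of -0.73 ± 0.14 (SE; adjusted p = 0.00049 by edgeR). Hnrnpf (chromosome 6, 117900324 to 117925622) was at 31.9 to 71.5 CPM in control (median 43.5) and 70.9 to 120.5 CPM in distal libraries (median 99.5). Distal replicate 4 lay just under the highest control library and the other distal libraries above it. The log2 fold change of Hnrnpf was 1.00 ± 0.20 (SE), edgeR adjusted p = 0.00049. Hnrnph2 was at -0.90 (adjusted p = 0.0013 by edgeR), and the short family member Hnrnph3 was at -0.47 (adjusted p = 0.077 by edgeR). The difference between the fold changes of these genes was not tested.

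Hnrnpa0, which binds AU-rich elements and is a target of the stress kinase MK2, was at 146 to 285 CPM in control (median 239) and 88.4 to 173 CPM in distal libraries (median 124.5). The log2 fold change was -0.83 ± 0.18 (SE), edgeR adjusted p = 0.0011, with distal replicates 3 and 4 inside the control range. Hnrnpl, which binds CA repeats, was at 240.5 to 369 CPM in control (median 281) and 128 to 276 CPM in distal libraries (median 204). All distal libraries but replicate 4 were below its control minimum, and its log2 fold change was -0.50 ± 0.16 (SE; adjusted p = 0.016 by edgeR). Its paralogue Hnrnpll, known for the splicing of CD45 in lymphocytes, fell without overlap, at -0.79 ± 0.16 (SE; adjusted p = 0.00051 by edgeR).

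Among the remaining hnRNPs, Hnrnpa3 was at -0.66 (adjusted p = 0.0066 by edgeR) and Hnrnpr, a regulator of mRNA transport and stability, at -0.75 (adjusted p = 0.034 by edgeR). The 5 that did not pass were Hnrnpa1, Hnrnpa2b1, Hnrnph3, Hnrnpm and Hnrnpab. Hnrnpa1 and Hnrnpa2b1, abundant repressors of exon inclusion, had log2 fold changes of -0.55 ± 0.24 and -0.59 ± 0.27 (SE; adjusted p = 0.064 and 0.076 by edgeR). Their distal libraries ranged widely, from 400.4 to 1159.8 CPM for Hnrnpa1 and from 1454 to 4922 CPM for Hnrnpa2b1. Hnrnpm was at -0.26 ± 0.14 (SE; adjusted p = 0.12 by edgeR). Hnrnpab was the Hnrnp gene closest to 0, at 0.16 ± 0.13 (SE; adjusted p = 0.30 by edgeR).

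**Figure D2:**
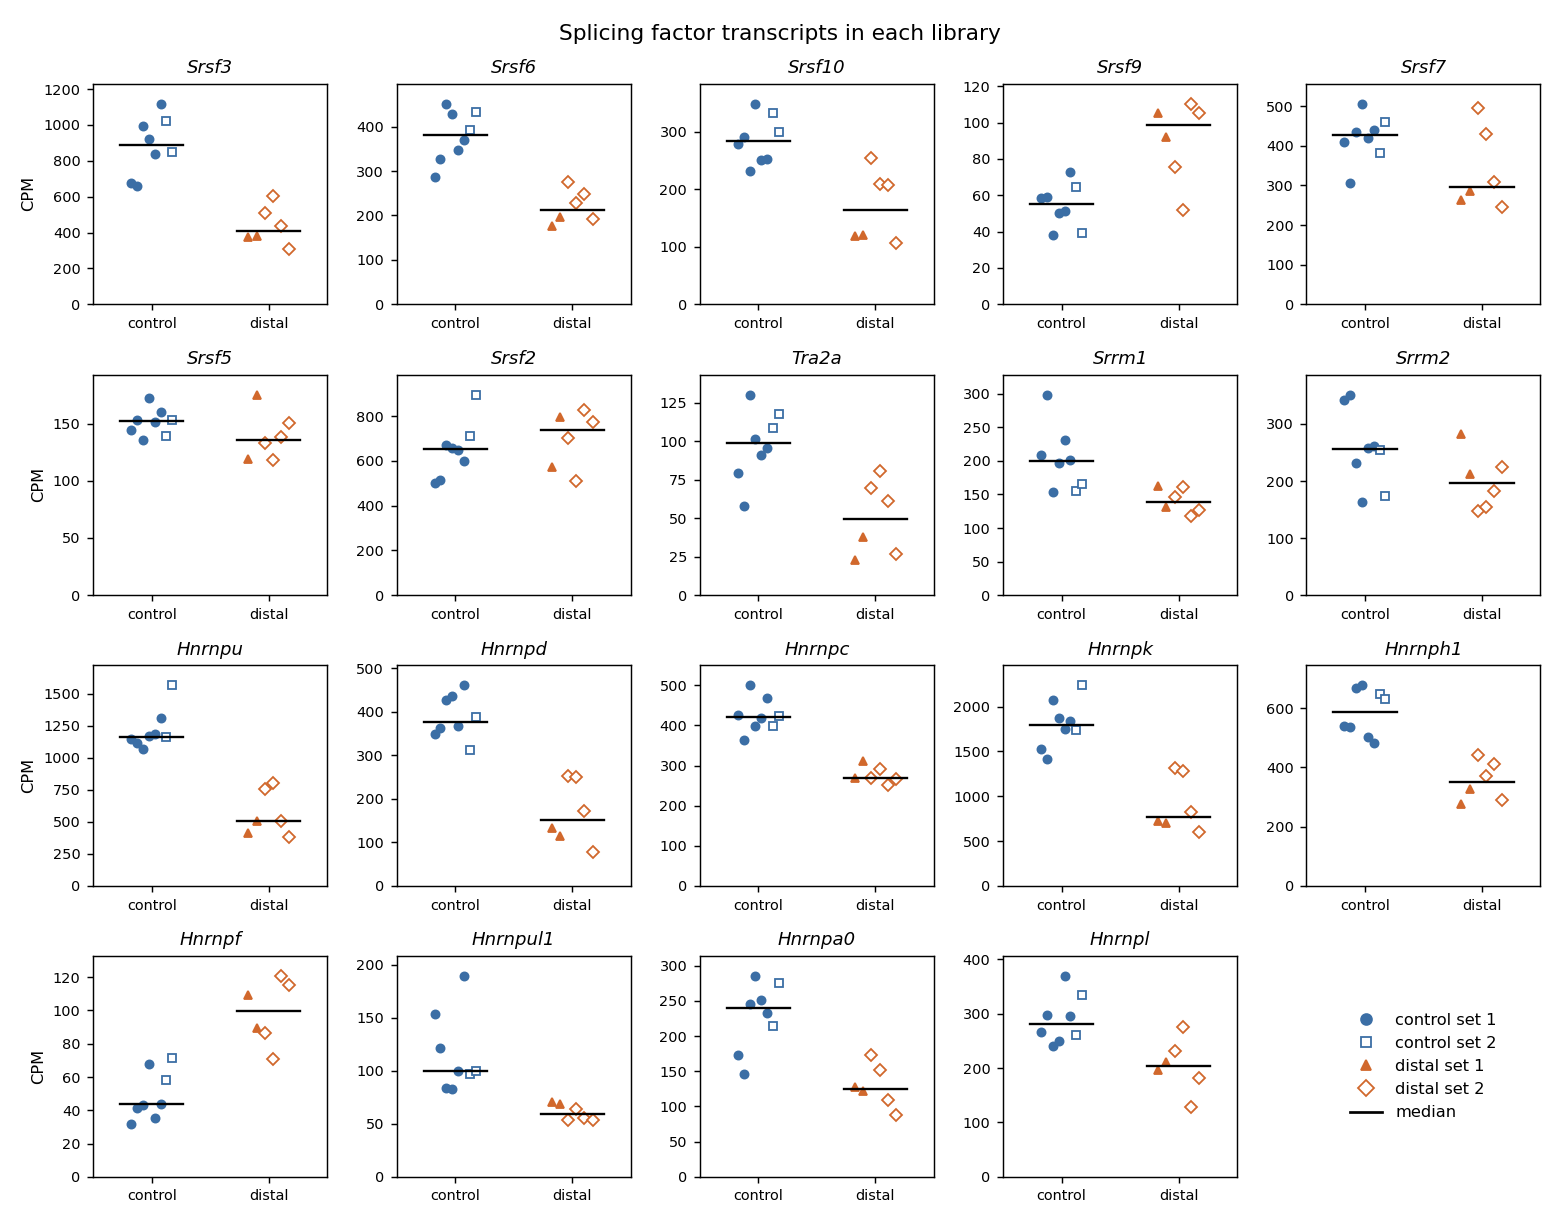
Expression of the members named in full, in CPM on linear axes that start at 0, with 1 point for each library (colour for region, symbol for set) and a line at the median of each region. Srsf3, Srsf6, Hnrnpu, Hnrnpd, Hnrnpc, Hnrnpk, Hnrnph1 and Hnrnpul1 have every distal library below every control library, while Hnrnpf and Srsf9 have 5 of 6 distal libraries above the highest control library.

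In all, 9 of the 34 members had every distal library below every control library (26.5%), against 5.65% of all genes tested: Srsf3, Srsf6, Hnrnpu, Hnrnpd, Hnrnpc, Hnrnpk, Hnrnph1, Hnrnpll and Hnrnpul1. None lay with every distal library above every control library, where 12.7% of all genes did. These shares of all genes are not matched to the GC content of the members, which is given below. In the other genes that fell, except Srsf11, Tra2a and Srrm1, the distal libraries inside the control range were replicate 3, replicate 4 or both. These had 4513518 and 4381280 counts against 2137934 to 3335486 in the other distal libraries.

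Among the distal libraries a larger share of counts on the members went with a lower GC slope, except between replicates 1 and 6. No line was fitted. The share of counts on the members was 1.65% in replicate 3 and 1.502% in replicate 4, whose GC slopes were 0.22 and 0.34. It was 1.28% in replicate 5 (slope 0.60), 1.17% in replicate 2 (slope 0.74), 1.09% in replicate 1 (slope 0.91) and 1.03% in replicate 6 (slope 0.90). With the libraries of at most 4000000 counts left out, 8 control and 2 distal libraries remained, and 4 members were lower (Hnrnpc, Hnrnpd, Hnrnpll and Hnrnpu) and 0 higher by edgeR, where 11.6% of all genes passed (6.98% higher, 4.63% lower). In either direction 11 of the 34 had an unadjusted p under 0.05, as did 28.7% of all genes. The log2 fold changes of the 4 called genes were then -0.62, -0.64, -0.93 and -0.66. Srsf3 was at -0.69 (adjusted p = 0.054 by edgeR) and Srsf9 at 0.22 (adjusted p = 0.64 by edgeR) in these libraries. With the counts of every library thinned to 2137934, all 22 members that had passed still passed with the same sign.

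Base composition went with fold change over the whole transcriptome. The correlation of log2 fold change with the median GC content of a gene's transcripts was r = 0.70 over 11654 genes (Spearman rho 0.73), and r = 0.37 over the 34 members (rho 0.34). With the GC content of principal transcripts, it was r = 0.48 over the members (rho 0.39). These are correlations across genes within the same libraries. By the median over annotated transcripts, the members were GC-poor as a group: 14 were in the lowest GC quintile of all genes (under 44.1%), 8 in the second, 6 in the third, 6 in the fourth and none in the highest. Some places depend on that choice, and quintiles of principal transcripts were not drawn. By their principal transcripts Srsf9 (56.2%) and Srsf4 (56.8%) lie above 55.4%, the lower bound of the highest quintile. Srsf2 is at 54.7% instead of 47.5%, and Hnrnpab at 49.9% instead of 52.1%. In the lowest quintile 53.3% of all genes were lower and 0.343% higher, and 10 of the 14 members there were lower. The median log2 fold change in that quintile was -0.75 for members and -0.89 for all genes. In the second quintile the medians were -0.53 and -0.57, with 4 of 8 members and 39.7% of all genes lower.

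The 6 members in the fourth quintile had a median of the opposite sign to all genes there. In that quintile (51.5% to 55.4% GC), where 40.4% of all genes were higher and 5.79% lower, 3 of 6 members were lower (Hnrnpa0, Hnrnpul1 and Hnrnpl) and 0 higher. The median log2 fold change there was -0.42 for the members and 0.50 for all genes. In the third quintile Srsf9 and Hnrnpf were higher, as were 12.4% of all genes, and Srsf6, Srrm1 and Hnrnpul2 were lower, as were 19.8%.

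**Figure D3:**
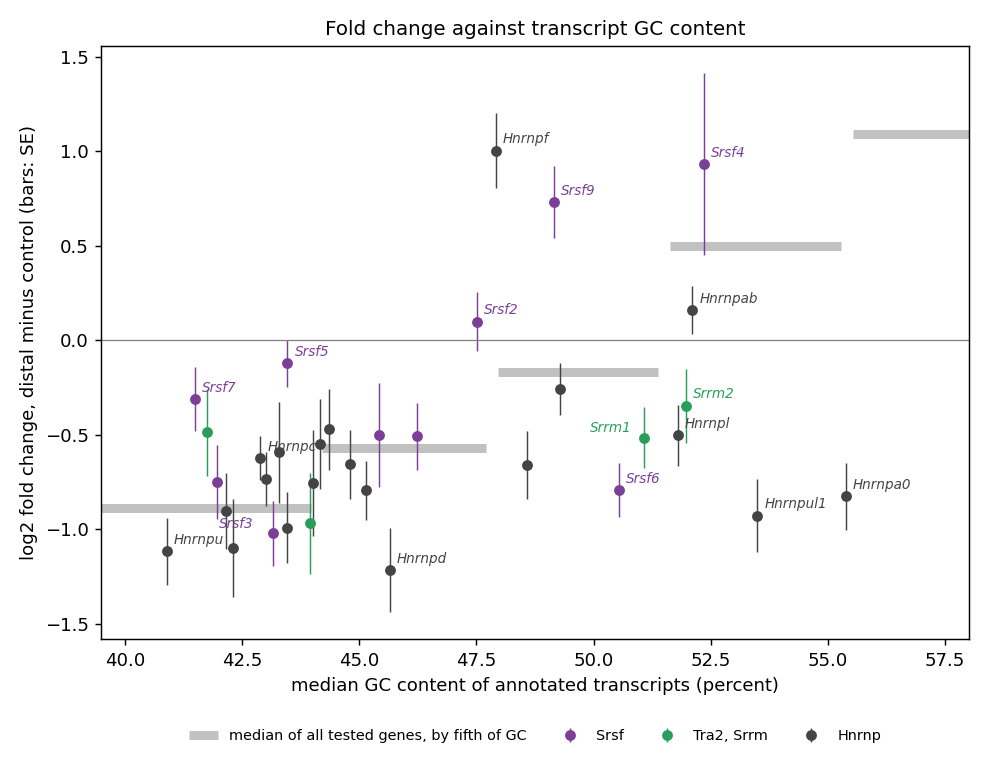
Log2 fold change of each tested member (distal minus control, points with SE bars, coloured by family) against the median GC content of its annotated transcripts in percent; grey bars give the median of all tested genes in each quintile of GC content. The GC-poor members on the left lie on both sides of the grey bar of their quintile, from Hnrnpd below it to Srsf5, Srsf7 and Srsf2 above it. Hnrnpa0, Hnrnpul1, Hnrnpl and Srrm2 lie well below theirs, and Hnrnpf and Srsf9 well above.

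The fit was therefore repeated with each library's trend on GC content and transcript length removed. Of the 34 members, 5 were now higher (Srsf9, Srsf7, Srsf5, Srsf2 and Hnrnpf) and 7 lower (Srsf6, Srrm1, Srrm2, Hnrnpd, Hnrnpul1, Hnrnpa0 and Hnrnpl), and 22 did not pass. Over all genes 18.9% passed, 10.4% higher and 8.57% lower. The median log2 fold change was -0.06 over the members and 0.03 over all genes. Of the 22 earlier calls, 8 held with the same sign and 14 were lost, and 4 genes passed only with the trend removed.

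The 8 genes called in both fits were Srsf6, Srsf9, Srrm1, Hnrnpd, Hnrnpf, Hnrnpul1, Hnrnpa0 and Hnrnpl. Hnrnpa0 and Hnrnpul1 were further from 0 with the trend removed, at -1.43 ± 0.20 and -1.31 ± 0.20 (SE; adjusted p = 0.00015 and 0.00023 by edgeR). Hnrnpf was at 1.35 ± 0.21 (SE; adjusted p = 0.00023 by edgeR) and Srsf9 at 0.89 ± 0.18 (SE; adjusted p = 0.0023 by edgeR). Srsf6 was at -0.73 ± 0.15 (SE; adjusted p = 0.0021 by edgeR), almost the value before. Hnrnpd was at -0.72 ± 0.17 (SE; adjusted p = 0.0066 by edgeR), Hnrnpl at -0.68 ± 0.17 (SE; adjusted p = 0.0087 by edgeR) and Srrm1 at -0.66 ± 0.15 (SE; adjusted p = 0.0045 by edgeR).

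Several of the largest falls shrank. Srsf3 was at -0.28 ± 0.14 (SE; adjusted p = 0.17 by edgeR), Hnrnpu at -0.32 ± 0.11 (SE; adjusted p = 0.051 by edgeR) and Hnrnpk at -0.34 ± 0.12 (SE; adjusted p = 0.055 by edgeR). Hnrnph1, Hnrnpll, Hnrnph2 and Srsf10 were between -0.04 and 0.02, and Hnrnpc was at 0.20 ± 0.14 (SE; adjusted p = 0.33 by edgeR). The 4 calls gained were Srsf7 at 0.55 ± 0.11 (SE; adjusted p = 0.0026 by edgeR), Srsf5 at 0.65 ± 0.15 (SE; adjusted p = 0.0058 by edgeR), Srsf2 at 0.47 ± 0.15 (SE; adjusted p = 0.039 by edgeR) and Srrm2 at -0.65 ± 0.17 (SE; adjusted p = 0.012 by edgeR). Srsf7 and Srsf5 had been at -0.31 and -0.12 before, so their sign turned, and no gene was called with opposite signs in these 2 fits.

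**Figure D4:**
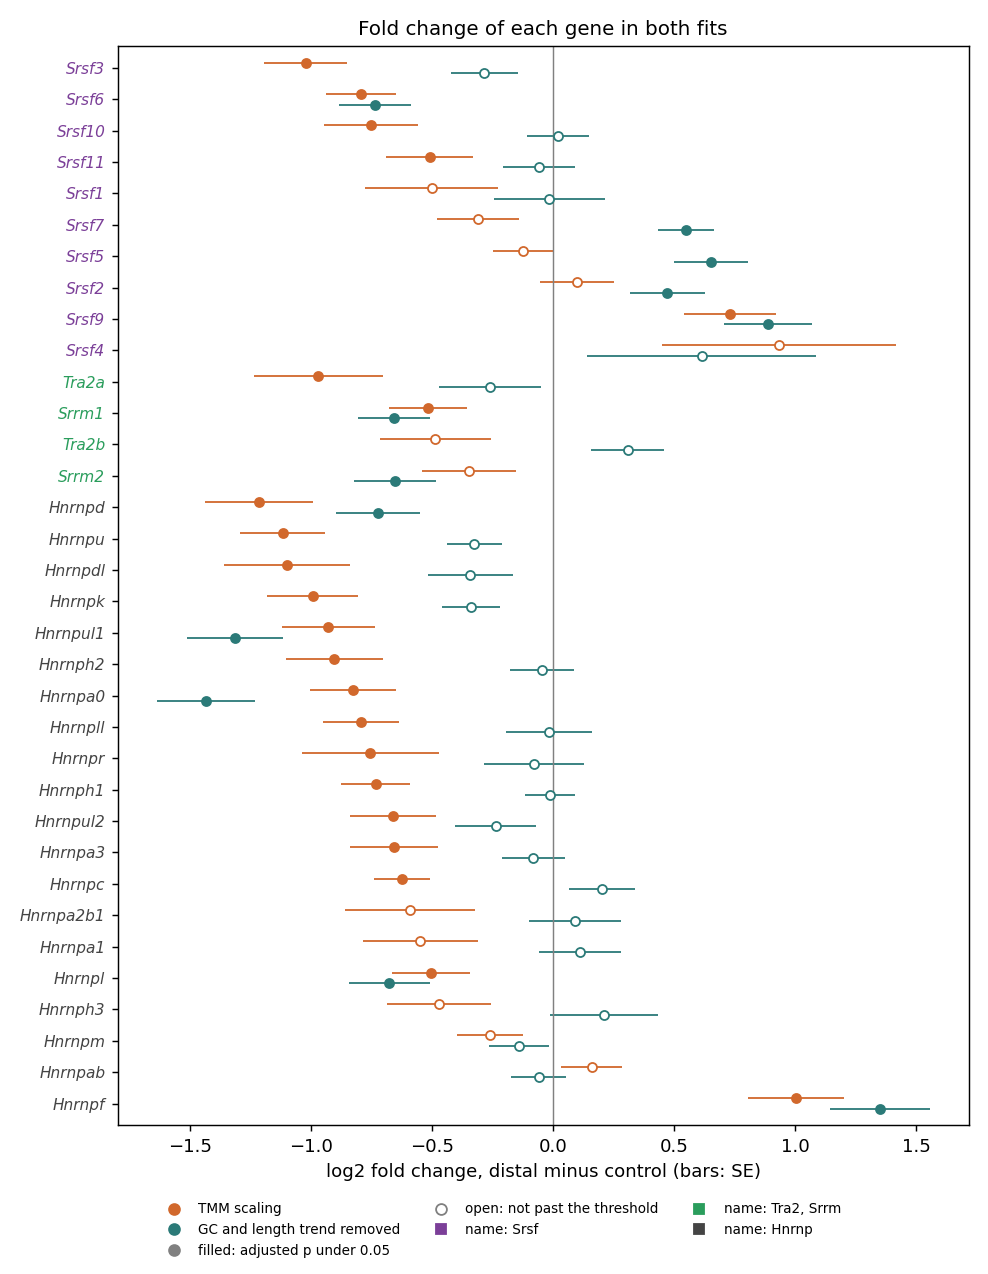
Log2 fold change (distal minus control, with SE bars) of the 34 tested members with TMM scaling alone (orange) and with the GC and length trend removed (teal); filled points have an edgeR adjusted p under 0.05, and the names are coloured by family. Most orange points lie left of 0 and most teal points of the Hnrnp genes near 0, with Hnrnpa0, Hnrnpul1, Hnrnpf, Hnrnpd, Srsf6 and Srsf9 far from 0 in both.

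The corrected values depend on which transcripts stand for a gene, since the table holds counts per gene. For Srsf2 the median GC content over its annotated transcripts is 47.5%, and that over its principal transcripts 54.7%. Where several transcripts of a gene tied for the best principal rank, the median over them was used. With the principal transcripts in place of the median (an alternative chosen after the data were seen), Srsf2 was at -0.66 (adjusted p = 0.0052 by edgeR), a call of the opposite sign. Srsf6 (median GC 50.5%, principal 42.8%) was then at 0.02 (adjusted p = 0.91 by edgeR) and Srsf9 (49.2% and 56.2%) at -0.22 (adjusted p = 0.37 by edgeR), so both lost their call and Srsf9 its sign. Hnrnpd (45.7% and 41.7%) was at -0.31 (adjusted p = 0.19 by edgeR) and Srrm2 at -0.45 (adjusted p = 0.078 by edgeR), and they lost their call as well. Transcript length differs too: Hnrnpu has 40.9% GC in both sets of transcripts, but a median length of 869 bases and a principal length of 7640. It was at -0.32 with the median and -0.13 (adjusted p = 0.50 by edgeR) with principal transcripts. The part of length in such shifts was not tested. Hnrnpa0, Hnrnpul1, Hnrnpl, Hnrnpf and Srrm1 held with either set of transcripts, at -1.53, -1.42, -1.04, 1.58 and -0.80. With principal transcripts 3 members were higher (Hnrnpf, Srsf5 and Srsf7) and 5 lower, where 16.8% of all genes passed (9.28% higher, 7.53% lower).

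Because libraries of a set may share their source, counts were also summed per set, which leaves 2 sums a region. In that fit 2 members were higher (Srsf9 and Hnrnpf) and 7 lower (Srsf3, Tra2a, Hnrnpu, Hnrnpd, Hnrnpk, Hnrnph2 and Hnrnpdl), where 30.5% of all genes passed (18.8% higher, 11.7% lower). With the trend removed as well, 1 was higher (Hnrnpf, 1.20, edgeR adjusted p = 0.043) and 2 lower (Hnrnpa0, -1.43, edgeR adjusted p = 0.017, and Hnrnpul1, -1.13, edgeR adjusted p = 0.031), where 2.69% passed (1.07% higher, 1.61% lower). Without control set 1, which leaves 2 control libraries, 8 members were lower (Srsf3, Srsf6, Hnrnpu, Hnrnpc, Hnrnpk, Hnrnph1, Hnrnpul1 and Hnrnpa0) and 0 higher by edgeR, where 19.6% of all genes passed (10.1% higher, 9.47% lower). In either direction 22 of 34 had an unadjusted p under 0.05, as did 38.1% of all genes. Hnrnpf was then at 0.60 (adjusted p = 0.11 by edgeR) and Srsf9 at 0.79 (adjusted p = 0.10 by edgeR). Without distal set 1, 13 were lower and 2 higher, where 35.1% of all genes passed (20.9% higher, 14.2% lower).

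Within a region, the sets were compared in a model that shares 1 estimate of the spread. No member passed between the control sets or between the distal sets (edgeR), and neither did any other gene (0% of all genes). At an unadjusted p under 0.05 there were 2 of 34 members between the control sets (8.24% of all genes) and 10 between the distal sets (7.83% of all genes). The median log2 fold change of distal set 2 minus set 1 was 0.33 over the members and 0.05 over all genes. It was 1.07 for Hnrnpr, 1.03 for Srsf1, 0.98 for Tra2a and Hnrnpdl, and 0.91 for Hnrnpa2b1, all with an edgeR adjusted p above 0.05. Hnrnpll and Srsf4 went the other way, at -0.52 and -0.63. With the trend removed the median was 0.10 over the members and 0.02 over all genes, and 4 of 34 members and 5.39% of all genes had an unadjusted p under 0.05.

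The levels of the members were compared as CPM per kilobase of the principal transcript, with the median length where several transcripts tied for the best rank. Hnrnpa2b1 stood apart in control libraries, at 2534 ± 645 (SD, n = 8), and its lowest library lay above the highest of the next gene, Hnrnpk, at 675 ± 99.6. Hnrnpa1 (506 ± 115), Srsf2 (404 ± 76.9), Hnrnpab (377 ± 56.3) and Srsf3 (338 ± 62.2) followed, and each overlapped its neighbour in the order. At the low end were Hnrnph3 (15.9 ± 3.34), Srsf4 (1.00 ± 0.49) and Srsf12 (0.13 ± 0.34). Srsf4 lay below every library of Hnrnph3 and overlapped Srsf12. In distal libraries Hnrnpa2b1 was again first (1681.5 ± 847, SD, n = 6), and Srsf2 (432 ± 79.7) and Hnrnpab (422 ± 29.4) came next. Hnrnpk (339 ± 116) had rank 5 instead of rank 2, and Hnrnpu moved from rank 12 to rank 18.

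What the families share beyond their names was read from the annotation. Pairs of adjacent arginine and serine codons, in either order, numbered 9 (Srsf9) to 106 (Srsf4) in the Srsf genes, or 4.05 to 23.5 pairs per 100 codons. They numbered 40 to 318 in the SR-related genes and 2 to 13 in the Hnrnp genes (0.274 to 2.64 per 100 codons). The share of arginine codons that are aga, a GC-poor codon, had r = -0.23 (rho -0.18) with log2 fold change over 34 members. It had r = -0.60 (rho -0.42) with the GC content of the principal transcripts. Of the 35 genes, 23 have an annotated transcript that is a target of nonsense-mediated decay, 9 Srsf, 4 SR-related and 10 Hnrnp genes, and counts per gene do not separate it from the coding form.

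The members lie on 17 chromosomes, so they are no cluster in the genome. Exons of 15 members overlap those of another gene, 12 of them on the opposite strand, and no source used here states whether counting used strand. The values of these genes are therefore uncertain: Hnrnpu overlaps Cox20, Hnrnpk overlaps Rmi1, Srsf2 overlaps Mettl23 and Mfsd11, Srrm2 overlaps Elob, Hnrnpf overlaps a pair of transcripts of unresolved type, and Hnrnpd and Hnrnpl each overlap an antisense gene. Reads from near-identical copies, such as the pseudogenes named for Hnrnpa1, may also have been split or dropped.

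The enzymes that act on the RS domain moved in both directions. Of 16 tested kinases, phosphatases and carriers of SR proteins, 3 were higher and 7 lower (median log2 fold change -0.59), beside 24.3% and 24.1% of all genes. Clk1, a kinase that releases SR proteins from speckles, was at 257.5 to 441 CPM in control (median 309) and at 97.7 to 170.5 CPM in distal libraries (median 121). Its log2 fold change was -1.35 ± 0.16 (SE; adjusted p = 5.6e-06 by edgeR) and -0.45 with the trend removed (adjusted p = 0.022 by edgeR). Top1, a topoisomerase that also phosphorylates SR proteins, was at -1.55 ± 0.19 (SE; adjusted p = 8.2e-06 by edgeR) and -0.80 (adjusted p = 0.00067 by edgeR). Ppp1ca, a catalytic subunit of protein phosphatase 1, was at 131 to 204 CPM in control and 309 to 520.2 CPM in distal libraries, with log2 fold changes of 1.33 ± 0.15 (SE; adjusted p = 4.1e-06 by edgeR) and 0.73 (adjusted p = 0.00055 by edgeR). All 3 kept their direction and call with the trend removed. In that fit 2 of the 16 were higher and 6 lower, beside 10.4% and 8.57% of all genes.

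Of 49 other splicing regulators tested, 6 were higher and 25 lower (median -0.53), and 7 were higher and 6 lower with the trend removed. These counts and those of the lists below stand beside 24.3% higher and 24.1% lower over all genes. With the trend removed the shares over all genes were 10.4% and 8.57%. Ptbp1, the polypyrimidine tract binding protein (hnRNP I), was higher, at 1.36 ± 0.16 (SE; adjusted p = 6.2e-06 by edgeR) and 0.47 with the trend removed (adjusted p = 0.028 by edgeR). Raly, a relative of Hnrnpc, was at 1.32 (adjusted p = 8.2e-06 by edgeR) and 0.28 (adjusted p = 0.15 by edgeR), and Bclaf1, an SR-like factor, at -1.20 (adjusted p = 3.5e-05 by edgeR) and -0.25 (adjusted p = 0.092 by edgeR). Of the core spliceosome, 17 were higher and 14 lower of 47 (median -0.03), and 12 and 8 with the trend removed. Snrpf, an Sm protein, was at 1.88 and 2.75, the U1-associated Luc7l3 at -1.39 and -0.56, and Prpf19, the ligase of the Prp19 complex, at 1.02 and 0.42 in the 2 fits, all past the threshold in both (edgeR). Of 15 genes of nonsense-mediated decay, 4 were higher and 5 lower (median -0.43), and 1 and 1 with the trend removed. Magoh and Magohb, paralogous parts of the exon junction complex, were at -1.21 and -1.05, and Smg9, of the Smg1 kinase complex, at 1.44, and none of the 3 passed with the trend removed (-0.38, -0.20 and 0.31).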

How the data were processed

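Small pools of cultured cells were sequenced with Smart-Seq2 cDNA and NexteraXT libraries, per the labels' protocols. The authors deposited 1 table of raw read counts per gene symbol for 14 libraries, made with HISAT2 and featureCounts on mm10/GRCm38, per the submitters' processing notes. Strand use and the handling of reads that match several genes are not given in the sources used here.

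Tests were run with edgeR 4.0.16 under R 4.3.3 (TMM scaling, the filterByExpr filter, a two-sided robust quasi-likelihood F test and Benjamini-Hochberg over all 11757 genes tested, threshold 0.05). Each SE was taken from the size of the log2 fold change over the root of its F value, and CPM uses TMM-scaled totals. For the GC and length fit, natural splines (4 degrees of freedom each) of the median GC content and log2 length of GENCODE transcripts were fitted to each library and entered as offsets, for 11654 genes. DESeq2 1.42.0, other scalings, no filter, summed sets, thinned counts, a replicate block and left-out libraries or sets were alternatives. The members and lists were chosen with earlier results of these data known. Values are given in full for the 4 Srsf, 2 SR-related and 6 Hnrnp genes with the smallest p and for every member called with the trend removed; each other list has the 3 genes with the smallest p named. In simulated counts for distal against control, 200 of 11757 genes were changed. The test recovered 6.17% of those at a 1.5-fold change, 27.3% at 2-fold and 81.2% at 4-fold, and called 4 of 11557 unchanged genes. In the data 5681 genes passed, which makes the adjusted threshold less strict there. The simulated shares therefore do not give the recovery of the test in these data. The 23 pairs of libraries within sets differed by more than sampling noise (chi-square per degree of freedom 6.83 to 40.0). Depth was 2137934 to 7458872 counts per library, and reads carry no molecular identifiers, so counting error understates the error of 1 library.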

Additional observations from a re-analysis of the deposited data

How the results depend on the processing

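With TMM scaling 2853 genes were higher and 2828 lower, and 2 and 20 of the members. The counts of all genes, then of members, moved by over 1.5 times under these alternatives. With the GC and length trend removed there were 1209 higher and 999 lower, and 5 and 7 members. In libraries over 4000000 counts there were 821 and 544, and 0 and 4 members. With counts summed per set 1376 genes and 7 members were lower. Without control set 1 there were 1187 and 1113, and 0 and 8 members, and without distal set 1 1674 genes and 13 members were lower. Alternatives chosen after seeing the data were the trend of principal transcripts (1082 and 877 genes, 5 members lower) and the trend removed on summed counts (125 and 188 genes, 1 and 2 members). Leaving out 1 library gave 2685 to 3210 genes higher and 2099 to 3091 lower, with 2 members higher and 16 to 25 lower. Between sets of a region, the count of members stayed at 0 in every fit run. The cause of these changes was not tested.

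Nothing in the labels pairs the libraries by the replicate numbers of their titles. Deviations of same-numbered libraries correlated at -0.02 to 0.11 over 6 pairs, and 1 of 6 correlated best with its own number. Such values do not settle whether same-numbered libraries share a source. With the replicate block 2586 genes were higher and 2856 lower, and 2 and 24 members. With the block and the trend removed there were 981 and 924 genes, and 6 and 7 members.

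Signs turned as follows. With the trend removed: Hnrnpc 0.20, Hnrnpa1 0.11, Hnrnpa2b1 0.090, Hnrnph3 0.21, Hnrnpab -0.058, Srsf10 0.021, Srsf7 0.55, Srsf5 0.65 and Tra2b 0.31. With the replicate block and the trend removed: Hnrnpc 0.14, Hnrnph1 0.024, Hnrnpr 0.0030, Hnrnpa1 0.18, Hnrnpa2b1 0.12, Hnrnph3 0.18, Hnrnpab -0.14, Srsf10 0.031, Srsf7 0.52, Srsf1 0.14, Srsf5 0.58 and Tra2b 0.44. With principal transcripts: Hnrnpc 0.14, Hnrnpr 0.10, Hnrnph3 0.19, Srsf6 0.024, Srsf10 0.10, Srsf9 -0.22, Srsf11 0.11, Srsf4 -0.0056, Srsf7 0.52, Srsf1 0.43, Srsf5 0.53, Srsf2 -0.66 and Tra2b 0.36. With the trend removed on summed counts: Hnrnpc 0.34, Hnrnpll 0.21, Hnrnpa1 0.062, Hnrnpa2b1 0.047, Hnrnph3 0.088, Srsf10 0.025, Srsf7 0.67, Srsf5 0.76 and Tra2b 0.17. In libraries over 4000000 counts: Hnrnpa1 0.080, Hnrnpa2b1 0.049, Srsf7 0.12, Srsf1 0.16 and Srsf2 -0.12. Srsf5 was at 0.052 with upper-quartile scaling, 0.065 with summed counts, 0.12 without distal set 2, and 0.013, 0.014 and 0.046 without control replicate 4, distal replicate 1 or distal replicate 4. Srsf2 was at -0.20 without control set 1 and Srrm2 at 0.12 without distal set 2.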
